A study of Homo sapiens with 4 samples.

Results

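The 10 genes described here encode ligands of the transforming growth factor β (TGF-β) family and the secreted proteins that hold these ligands back. They were picked by name among 50868 genes in the count files, with earlier results of these data known. The ligands are TGFB1, TGFB2, TGFB3, BMP2, BMP4, INHBA and GDF15, and the proteins that bind them are GREM1, FST and LTBP1. All 10 were found in the files. RNA was sequenced in 4 libraries of A549, a lung adenocarcinoma cell line, of which 2 were controls with the empty vector and 2 overexpressed the deubiquitinase USP12. The labels give no time, dose or clone for either group, and they do not say that the replicates came from separate cultures, so p-values measure the spread between these libraries, which may be technical. The question was which genes differ when A549 cells carry additional USP12.

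TGF-β ligands are dimers that bring a type II receptor and a type I receptor together on the cell surface. The type I receptor then phosphorylates SMAD proteins, mostly SMAD2 and SMAD3 for TGF-β and activins and SMAD1, SMAD5 and SMAD9 for bone morphogenetic proteins (BMPs), and these enter the nucleus with SMAD4. TGF-β is secreted in a latent form bound to the matrix by latent TGF-β binding proteins, whereas BMPs are held back by antagonists such as gremlin and activins by follistatin. In epithelial cells the pathway is known for growth arrest and for epithelial-mesenchymal transition, and in lung tumours for effects on fibroblasts and immune cells.

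The labels were checked by USP12 itself, which had 15.2 and 34.4 CPM (counts relative to library size, after edgeR's TMM scaling) in control replicates 1 and 2 and 1745 and 2235 CPM in USP12 replicates 1 and 2 (log2 fold change 6.32, SE 0.57, adjusted p = 0.0975 in edgeR's quasi-likelihood test). The library totals lay between 14280081 and 16305356 counts, and 3 counts, the limit that a count of 0 allows, corresponded to between 0.166 and 0.227 CPM, which covers counting error only. The control libraries stood apart from each other, with an SD of the log2 ratio across genes of 1.32, against 0.62 between the USP12 libraries. Against USP12 replicates 1 and 2 this SD was 1.28 and 1.31 for control replicate 1 and 1.10 and 1.01 for control replicate 2. The controls were thus no closer to each other than to the USP12 libraries. Control replicate 1 differs from the other 3 in the date-like prefix of its column heading. The 6 epithelial markers summed to 12896 and 7474 CPM in control replicates 1 and 2 and to 7316 and 6794 CPM in USP12 replicates 1 and 2, with both USP12 libraries below both controls in 4 of 6. The median log2 fold change of these markers was -0.80, and KRT19 met the criterion given below as lower, while their part in the results was not tested. The fibroblast marker DCN and the leukocyte markers CD3E and MS4A1 had 0 counts in every library, but other markers of these lists had counts. COL1A1 had between 2.60 and 18.9 CPM and CD68 between 46.8 and 79.0 CPM. LYZ, with at most 27 counts in a library, met the criterion given below as lower. Summed over 8 fibroblast genes, control replicates 1 and 2 had 34.6 and 4.21 CPM and USP12 replicates 1 and 2 had 22.7 and 17.5 CPM. The leukocyte list of 6 genes summed to between 53.0 and 112 CPM. The 10 most abundant genes took 13.8% and 14.3% of the counts in the controls and 24.4% and 22.1% with USP12, and the part of this in the results was not tested. No gene of 15222 tested had an adjusted p under 0.05 in edgeR's quasi-likelihood test (0%), while 7.59% had an unadjusted p under 0.05. The criterion used below, an unadjusted p of at most 0.05 and a log2 fold change of at least 1 in size, was met by 2.92% of genes as higher with USP12 and by 4.41% as lower. The study states these limits for genes lower with USP12, without saying whether its p was adjusted, and they were mirrored here for higher genes.

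Of the 10 genes, 9 passed the filter on low counts. GREM1, BMP2 and TGFB2 met the criterion as higher in USP12-overexpressing cells, which is 3 of 9 (33.3%) against the 2.92% of all genes. As lower, 0 met it. BMP2, GREM1, TGFB3 and FST had under 10 counts in control replicate 1 and passed the filter only through their USP12 libraries, where they were higher. With at least 10 counts required in every library, 5 of the 10 were tested. TGFB2 alone then met the criterion as higher, 1 of 5 against 2.44% of all genes. In bulk libraries, more RNA per cell and more cells with a transcript cannot be told apart. In 5 of the 9 both USP12 libraries lay above both control libraries, which 19.5% of all genes tested did, and in 1, GDF15, they lay below, as in 17.0% of all genes. The groups overlapped for TGFB1, BMP4 and LTBP1. The median log2 fold change was 1.52 over the 9 genes and -0.057 over all genes tested. The 1.52 is the estimate of TGFB3, and the filter let in BMP2, GREM1, TGFB3 and FST through the libraries where they were high. This median therefore only describes the 9 genes. GREM1, BMP2 and TGFB2 had an adjusted p under 0.05 in the edgeR exact test and in the DESeq2 Wald test. These tests called 2.82% and 2.75% of the genes they gave an adjusted p.

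**Figure D1:**
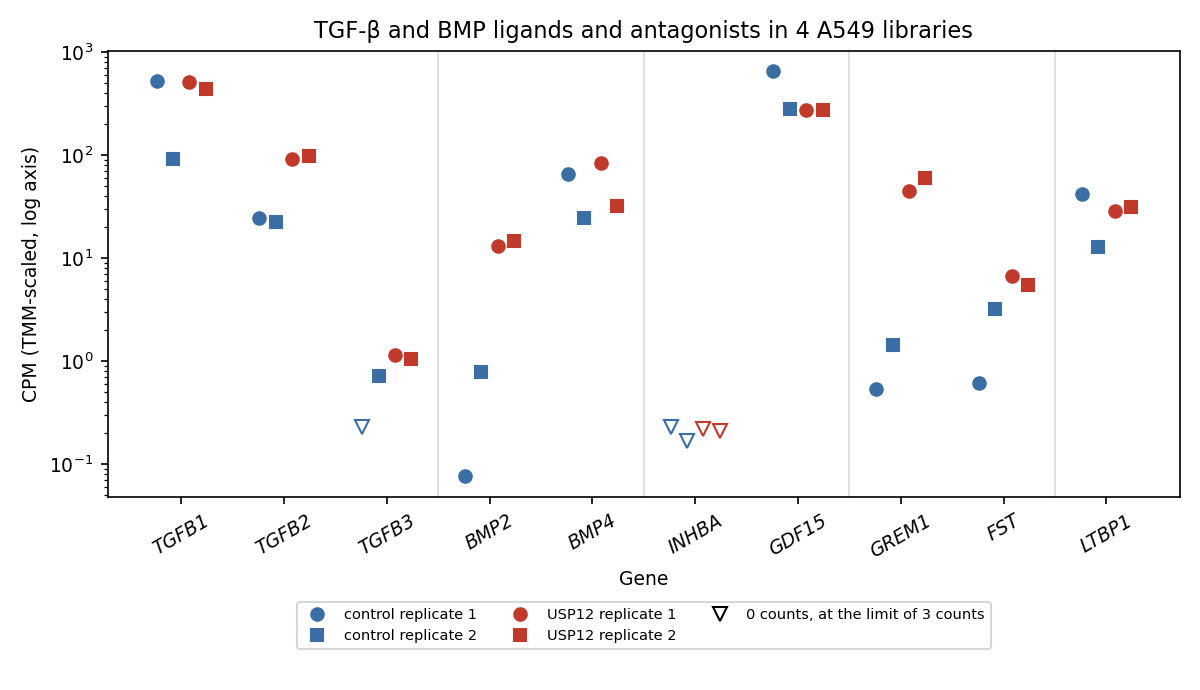
The level of each of the 10 genes in CPM on a log axis, with 1 point for each of the 4 libraries in control and USP12-overexpressing A549 cells, and open triangles at the level of 3 counts for libraries with 0 counts. GREM1, BMP2 and TGFB2 separate the groups widely, TGFB1 is lowest in control replicate 2, and INHBA had 0 counts in all 4 libraries.

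The promoters of TGFB1, TGFB2 and GREM1 are shown because TGFB1 was the more abundant TGF-β isoform, TGFB2 the one that met the criterion, and because GREM1 had the largest log2 fold change of the 10 genes. Each is the 250 bases before the RefSeq start on GRCh38.p14, written 5′ to 3′ on the strand of the gene, with capitals for motif letters found on either strand. TGFB1 is at chr19:41353923-41354172 on the minus strand, TGFB2 at chr1:218345086-218345335 and GREM1 at chr15:32717754-32718003, both on the plus strand.
TGFB1: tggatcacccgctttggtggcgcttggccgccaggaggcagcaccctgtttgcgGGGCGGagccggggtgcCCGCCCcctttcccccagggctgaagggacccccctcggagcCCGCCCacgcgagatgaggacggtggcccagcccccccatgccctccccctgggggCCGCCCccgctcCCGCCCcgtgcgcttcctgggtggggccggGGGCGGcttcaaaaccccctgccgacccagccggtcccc
TGFB2: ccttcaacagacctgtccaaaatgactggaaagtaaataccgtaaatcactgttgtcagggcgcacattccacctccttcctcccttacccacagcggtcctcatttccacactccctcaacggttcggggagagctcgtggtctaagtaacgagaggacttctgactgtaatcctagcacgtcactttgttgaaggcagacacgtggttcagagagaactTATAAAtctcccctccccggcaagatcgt
GREM1: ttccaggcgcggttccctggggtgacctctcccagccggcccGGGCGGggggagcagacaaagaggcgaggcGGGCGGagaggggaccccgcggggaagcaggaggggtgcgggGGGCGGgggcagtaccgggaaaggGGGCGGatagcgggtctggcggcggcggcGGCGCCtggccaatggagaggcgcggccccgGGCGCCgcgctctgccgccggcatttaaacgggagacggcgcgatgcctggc
The capitals in the TGFB1 window are 6 GC boxes (GGGCGG), those in the TGFB2 window a TATA box (TATAAA) that begins 29 bases before the start, and those in the GREM1 window 4 GC boxes and 2 copies of GGCGCC, a GC element described for BMP-activated SMADs, 83 and 52 bases before the start. The windows held 76.8% G and C for TGFB1, 50.4% for TGFB2 and 76.8% for GREM1, with 21, 11 and 32 CpG dinucleotides, against medians of 58.0% and 11 CpG over 35116 RefSeq windows of this length. A TATA box was present in 10.7% of all windows, a GC box in 42.6% and GGCGCC in 16.4%. The SMAD palindrome GTCTAGAC, the AP-1 site TGACTCA and the CRE TGACGTCA, searched on both strands, were not in these 3 windows and were present in 0.182%, 4.20% and 1.65% of all windows. No 2 of the motifs shared bases in the windows shown. Of the 10 genes, 9 had a RefSeq window. A match is a run of letters and says nothing of binding in these cells.

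TGFB2 was the TGF-β ligand with a difference larger than the spread between replicates. It encodes the isoform TGF-β2, which needs the co-receptor betaglycan (TGFBR3) for efficient binding to its receptors. TGFB2, at chromosome 1 from 218345336 to 218444619 on the plus strand of GRCh38, had 24.5 and 22.2 CPM (324 and 400 counts) in control replicates 1 and 2 and 90.6 and 96.8 CPM (1258 and 1397 counts) in USP12 replicates 1 and 2. The libraries of each group lay close together, and both USP12 libraries were well above both controls. The mean was 4.01-fold higher with USP12, and the log2 fold change was 2.00 (SE 0.37, 95% interval 1.10 to 2.91, adjusted p = 0.210 in edgeR's quasi-likelihood test). The log2 fold change stayed between 1.96 and 2.08 when any 1 library was left out. TGFB2-AS1 overlaps 701 exonic bases on the opposite strand with at most 17 counts in a library, and TGFB2-OT1 overlaps 1371 bases on the same strand with at most 6.

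TGFB1, the most widely expressed isoform, was far more abundant but did not separate the groups. TGFB1, at chromosome 19 from 41301587 to 41353922 (minus strand), was measured at 516 and 91.8 CPM in the control pair and 511 and 436 CPM in the USP12 pair. Control replicate 1 lay above both USP12 libraries and control replicate 2 was 5.61-fold below control replicate 1. Its log2 fold change was 0.64 (SE 0.75, 95% interval -1.18 to 2.46, adjusted p = 0.942 in edgeR's quasi-likelihood test). Without control replicate 1 it was 2.37 and without control replicate 2 it was -0.095, so the direction rested on which control was used. HNRNPUL1, which overlaps TGFB1 on the opposite strand over 215 exonic bases, had 1036, 1016, 1177 and 1062 CPM in the same order of libraries and did not show the gap between the controls.

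TGFB3, which encodes the isoform known for palate fusion, was close to the limit of the counts. TGFB3, at chromosome 14 from 75958097 to 75983011 (minus strand), had 0 and 13 counts with the empty vector and 16 and 15 counts with USP12. Control replicate 2 was near the USP12 libraries, and the log2 fold change of 1.52 had a 95% interval from -1.73 to 4.77 (adjusted p = 0.924 in edgeR's quasi-likelihood test). Without control replicate 1, whose count was 0, the log2 fold change was 0.60. Without control replicate 2 it was 6.94, and since the remaining control was at 0 this fitted value depends on the prior count and is no bound.

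The composition of the TGF-β ligand pool therefore varied more between the controls than between the groups. TGFB2 made up 2.50% and 11.5% of the summed CPM per kilobase of exonic length of the 3 isoforms in control replicates 1 and 2, and 8.72% and 10.7% in USP12 replicates 1 and 2. The share in control replicate 2 lay above both USP12 libraries and the share in control replicate 1 below both.

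BMP2 and BMP4, close relatives that signal through the same receptors, behaved differently. BMP2, at chromosome 20 from 6767686 to 6780246 on the plus strand, had 1 and 14 counts in the control pair (0.0757 and 0.776 CPM) and 182 and 212 counts in the USP12 pair (13.1 and 14.7 CPM). The controls were at or little above the counting limit, and both USP12 libraries were far above them. The estimate, as a log2 fold change, was 4.93 (SE 0.94, 95% interval 2.64 to 7.23, adjusted p = 0.221 in edgeR's quasi-likelihood test), 4.15 when control replicate 1 was left out and 7.39 without control replicate 2. The last value rests on the single count of control replicate 1 and depends on the prior count, and ratio of the USP12 libraries to that count was 184, with a 95% counting interval from 32.8 to 7278. No annotated exon of another gene overlaps BMP2.

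BMP4, at chromosome 14 from 53949736 to 53958761 (minus strand), had 65.6 and 24.6 CPM in control replicates 1 and 2 against 82.8 and 31.9 CPM in the USP12-overexpressing replicates. The groups overlapped, and in both groups replicate 1 was above replicate 2, by 2.67-fold in the controls and 2.59-fold in the USP12 libraries. Between the groups, the log2 fold change of BMP4 was 0.35 (SE 0.66, 95% interval -1.26 to 1.95, adjusted p = 0.967 in edgeR's quasi-likelihood test). It was 1.22 without control replicate 1, -0.16 without control replicate 2 and -0.48 without USP12 replicate 1. BMP2 made up 0.101% and 2.68% of the summed CPM per kilobase of BMP2 and BMP4 in the control pair and 12.1% and 28.7% in the USP12 pair, without overlap between the groups.

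GREM1, the BMP antagonist gremlin, which binds BMP2, BMP4 and BMP7 and keeps them from their receptors, had the largest log2 fold change of the 10 genes. GREM1, at chromosome 15 from 32718004 to 32745106 on the plus strand, had 7 and 26 counts in the control pair (0.530 and 1.44 CPM) and 618 and 868 counts in the USP12 pair (44.5 and 60.1 CPM). Both controls were low and both USP12 libraries high, with a 53.1-fold difference between the means. On the log2 scale the fold change was 5.69 (SE 0.67, 95% interval 4.05 to 7.33, adjusted p = 0.125 in edgeR's quasi-likelihood test), and it lay between 5.18 and 6.63 when any 1 library was left out. GREM1-AS1, which overlaps 367 exonic bases on the opposite strand, had 0 and 1 counts with the empty vector and 19 and 10 counts with USP12, and with the use of strand in the counting not stated these few reads cannot be told apart from reads of GREM1.

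The antagonist and its ligand were thus both higher with USP12. The CPM per kilobase of GREM1 divided by the sum of those of BMP2 and BMP4 was 0.00169 and 0.0119 in control replicates 1 and 2 against 0.0989 and 0.281 in the USP12-overexpressing replicates. The groups did not overlap, and GREM1 remained below the summed ligands in every library on this scale. In control replicate 1 GREM1 was above BMP2 alone, with 0.0358 against 0.0213 CPM per kilobase from 7 counts and 1 count. The ratio compares messenger RNA only.

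FST, which encodes follistatin, an inhibitor of activins and some BMPs, had 8 and 57 counts in the control pair (0.605 and 3.16 CPM) and 93 and 78 counts in the USP12 pair (6.69 and 5.40 CPM). FST lies at chromosome 5 from 53480626 to 53487134 on the plus strand, with no overlapping exon of another gene. Both USP12 libraries were above both controls, but in log2 CPM the controls were further apart than control replicate 2 was from either USP12 library. Its log2 fold change was 1.66 (SE 0.84, 95% interval -0.39 to 3.71, adjusted p = 0.789 in edgeR's quasi-likelihood test), 0.94 when control replicate 1 was left out and 3.33 without control replicate 2.

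INHBA, at chromosome 7 from 41667168 to 41705834 on the minus strand, encodes the subunit of activin A, the main target of follistatin. It had 0 counts in all 4 libraries and was not tested, which allows at most 0.166 to 0.227 CPM depending on the library. INHBA-AS1 was also at 0 in all 4. The related subunit gene INHBB had 29.9 and 45.2 CPM in the control pair and 77.4 and 82.9 CPM in the USP12 pair, with a log2 fold change of 1.09 (SE 0.40, adjusted p = 0.564 in edgeR's quasi-likelihood test). INHBB was the only 1 of 6 tested genes among 26 further ligands that met the criterion, and 7 of the 26 were at 0 in every library.

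GDF15, a distant family member induced by cell stress whose receptor GFRAL is known from the hindbrain, was the member whose USP12 libraries were lower than both controls. GDF15, at chromosome 19 from 18374731 to 18389176 on the plus strand, had 651 and 276 CPM with the empty vector and 272 and 270 CPM with USP12. Control replicate 2 was nearly equal to the USP12 libraries and control replicate 1 alone was higher. The fitted log2 fold change was -0.78 (SE 0.47, 95% interval -1.92 to 0.37, adjusted p = 0.849 in edgeR's quasi-likelihood test), -0.030 when control replicate 1 was left out and -1.24 without control replicate 2. GFRAL had 0 counts in every library.

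LTBP1, which stores latent TGF-β in the matrix, had 41.6 and 12.7 CPM in control replicates 1 and 2 against 28.5 and 30.9 CPM in the USP12-overexpressing replicates. LTBP1 spans chromosome 2 from 32946953 to 33399509 on the plus strand. The USP12 libraries lay between the controls. In log2 units the fold change was 0.13 (SE 0.62, 95% interval -1.38 to 1.64, adjusted p = 0.984 in edgeR's quasi-likelihood test), and it was 1.23 when control replicate 1 was left out and -0.46 without control replicate 2.

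**Figure D2:**
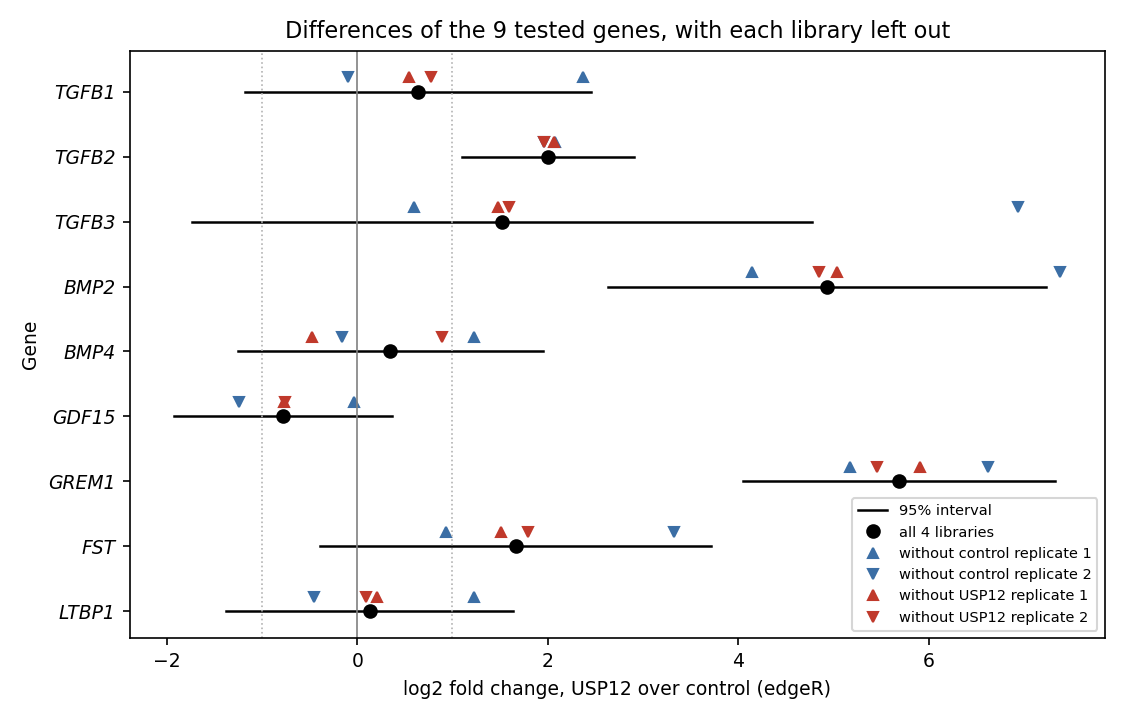
The log2 fold change of the 9 tested genes, USP12 over control, as black points with 95% intervals from edgeR's quasi-likelihood fit, with triangles for the fits that leave out 1 library and dotted lines at -1 and 1. The intervals of GREM1, BMP2 and TGFB2 lie above 0 and those of the other 6 genes include 0, and the triangles without a control library lie furthest apart for TGFB3.

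The controls differed widely in most of the genes described. In log2 CPM, 8 of the 9 tested genes differed by at least 1 between the control libraries, TGFB2 being the exception with a difference of 0.14, whereas 1 of 9, BMP4, differed by as much between the USP12 libraries. Over all genes tested, 43.5% did so between the controls and 7.90% between the USP12 replicates. Of the controls, replicate 1 was the higher for TGFB1, TGFB2, BMP4, GDF15 and LTBP1 and the lower for TGFB3, BMP2, GREM1 and FST. The difference between the group means exceeded the gap between the controls in 3 of the 9 genes, GREM1, BMP2 and TGFB2. The same share was not computed over all genes tested, so this count only describes the 9 genes. Whether the gap came from the cells or from the library preparation was not tested.

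**Figure D3:**
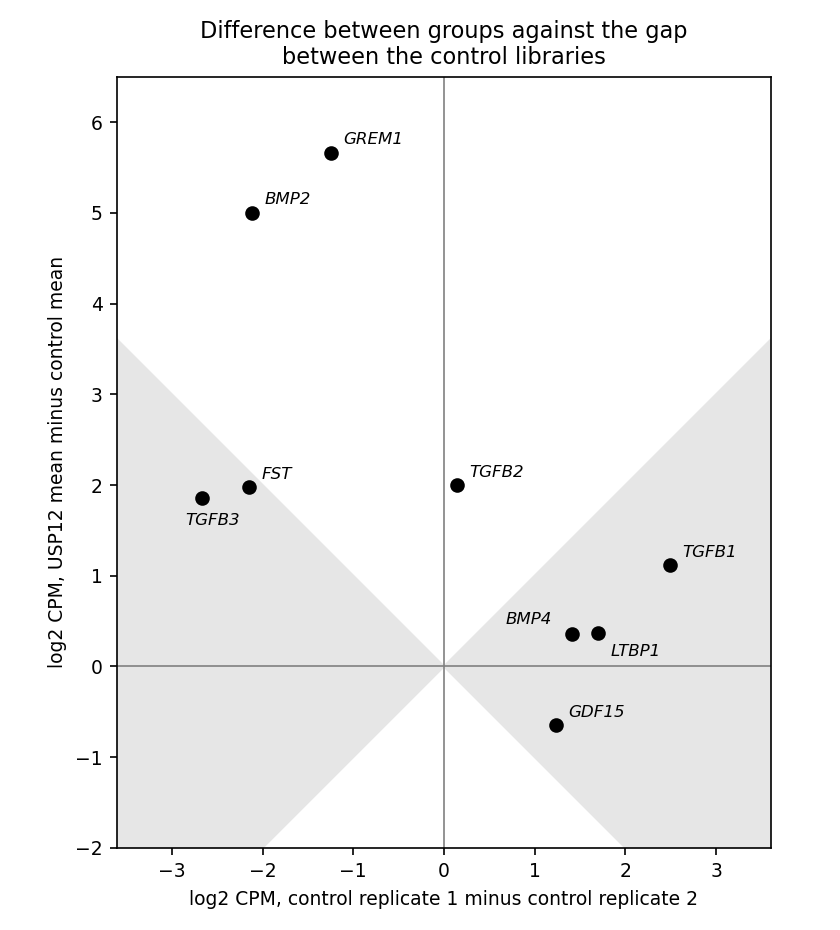
For each of the 9 tested genes, the log2 CPM of control replicate 1 minus control replicate 2 on the horizontal axis and the log2 CPM of the USP12 mean minus the control mean on the vertical axis. Points in the grey areas have a gap between the controls larger than the difference between the groups, and GREM1, BMP2 and TGFB2 lie outside them.

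Levels were compared between genes as CPM per kilobase of exonic length. In the control libraries GDF15 was highest, with a mean of 222 CPM per kilobase and a range from 132 to 312, followed by TGFB1, with 93.0 and a range from 28.1 to 158. The ranges overlapped, although within each control library GDF15 was above TGFB1. BMP4 followed with 14.6, and TGFB2 and LTBP1, with 3.86 and 3.70, overlapped. FST had 0.684, and BMP2, TGFB3 and GREM1 were at 0.120, 0.0690 and 0.0666, with overlapping ranges.

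With USP12 the order was TGFB1 at 145 CPM per kilobase and GDF15 at 130, whose ranges did not overlap, then BMP4 at 18.5 and TGFB2 at 15.5, whose ranges did. LTBP1, BMP2 and GREM1 had 4.04, 3.92 and 3.54 CPM per kilobase, with overlapping ranges but in this order within each USP12 library, and were followed by FST at 2.20 and TGFB3 at 0.210. GREM1 and BMP2, among the genes near the counting limit in the controls, therefore had levels like that of LTBP1 in the USP12 libraries, while INHBA stayed at 0.

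The receptors of TGF-β, activins and BMPs given here had counts in all 4 libraries. TGFBR2, the type II receptor of TGF-β, had 22.9 and 68.8 CPM per kilobase in the control pair and 64.9 and 71.5 in the USP12 pair, so that control replicate 1 stood apart. The type I receptor TGFBR1 had 1.06, 3.34, 0.802 and 3.98 CPM per kilobase in control replicates 1 and 2 and USP12 replicates 1 and 2, and was low in replicate 1 of each group. The activin receptors ACVR1B, ACVR2A and ACVR2B and the BMP receptors BMPR1A, BMPR1B and BMPR2 had levels between 0.301 and 17.1 CPM per kilobase, and the co-receptor TGFBR3 had 2.96 and 2.85 with the empty vector and 1.85 and 1.90 with USP12.

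Of 17 receptor and co-receptor genes 13 were tested, with a median log2 fold change of 0.27, and 1 met the criterion, as lower. This was ACVRL1, known as an endothelial receptor of BMP9 and BMP10, which had 2.88 and 3.71 CPM in control replicates 1 and 2 against 0.288 and 0.416 CPM in the USP12-overexpressing replicates. Its log2 fold change was -3.20 (SE 0.75, adjusted p = 0.302 in edgeR's quasi-likelihood test). The 4 endothelial markers summed to 15.4 and 8.59 CPM in the control pair and 0.504 and 1.32 CPM in the USP12 pair, and both of the tested ones, PECAM1 and CDH5, met the criterion as lower. The part of these transcripts in the result was not tested.

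A further list held 12 genes grouped under TGF-β latency and activation, and a role in storing TGF-β was not tested for any of them. Of these 11 were tested and 2 met the criterion, both as higher, with a median log2 fold change over the list of 0.24. LTBP2, a relative of LTBP1 that is found in elastic matrix, had 36.1 and 13.4 CPM with the empty vector and 108 and 116 CPM with USP12 (log2 fold change 2.18, SE 0.55, adjusted p = 0.330 in edgeR's quasi-likelihood test). ITGB6, the β subunit of the epithelial integrin that activates latent TGF-β, had 0.0757 and 0.665 CPM in control replicates 1 and 2 against 2.88 and 3.19 CPM in the USP12-overexpressing replicates (log2 fold change 2.95, SE 1.01, adjusted p = 0.513). Both genes had their USP12 libraries above both controls, but ITGB6 rests on 1 and 12 control counts against 40 and 46 counts with USP12. ITGB6 passed the filter only through its USP12 libraries and was not tested with at least 10 counts required in every library. Of 14 further antagonists 6 were tested, with a median log2 fold change of -0.15, and 0 met the criterion in either direction.

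SMAD1 to SMAD7 had counts in all 4 libraries, whereas SMAD9, a BMP SMAD, had 12 and 7 counts in the control pair and 1 and 0 counts in the USP12 pair and was not tested. SMAD3 had 41.5 and 24.6 CPM per kilobase in the control pair and 42.9 and 49.9 in the USP12 pair, while SMAD2 lay between 0.893 and 1.34, SMAD4 between 0.594 and 1.74, SMAD1 between 0.971 and 2.07 and SMAD5 between 1.63 and 5.16. The inhibitory SMAD6 had 13.2, 9.50, 11.0 and 10.1 CPM per kilobase in the same order of libraries. Of 13 SMADs and regulators 12 were tested, and SMAD7, an inhibitory SMAD induced by TGF-β, was the 1 that met the criterion, with 11.4 and 8.15 CPM with the empty vector and 22.2 and 24.8 CPM with USP12 (log2 fold change 1.26, SE 0.45, adjusted p = 0.554 in edgeR's quasi-likelihood test). The median of this list was 0.17.

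Of 12 genes known as SMAD targets 11 were tested, and 4 met the criterion as higher and 0 as lower, with a median log2 fold change of 0.092. One of the 4 is SMAD7. PMEPA1, a TGF-β target that restrains SMAD signalling and overlaps the antisense gene NKILA, had 133 and 101 CPM in control replicates 1 and 2 against 966 and 1022 CPM in the USP12-overexpressing replicates (log2 fold change 3.09, SE 0.35, adjusted p = 0.125 in edgeR's quasi-likelihood test). TGFBI, a matrix protein named for its induction by TGF-β, had 518 and 286 CPM in the control pair and 1088 and 1147 CPM in the USP12 pair (log2 fold change 1.47, SE 0.39, adjusted p = 0.352). ID2, a BMP target, had 26.8 and 11.2 CPM with the empty vector and 65.3 and 50.7 CPM with USP12 (log2 fold change 1.61, SE 0.54, adjusted p = 0.501).

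Other targets did not separate in the same way. ID1, the BMP target most often used as a readout, had 859 and 226 CPM in control replicates 1 and 2 against 290 and 238 CPM in the USP12-overexpressing replicates, and ID3 had 504 and 204 CPM against 358 and 256 CPM. In both, control replicate 1 was above and control replicate 2 below the USP12 libraries. Over the 90 pathway genes outside the 10, 55 were tested. Of these 7 met the criterion as higher and 1 as lower, against 2.92% and 4.41% of all genes.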

How the data were processed

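From stranded mRNA libraries the authors trimmed adaptors and filtered out ribosomal reads (Seqtk), aligned to GRCh38 with HISAT2 2.0.4 and took uniquely mapped fragments per gene from StringTie 1.3.0, and the deposited values are these raw counts. The annotation release, and whether counting was strand-specific, are not given in the sources used here, so overlapping genes are uncertain. Groups came from the sample labels. Counts were analysed in R 4.3.3 with edgeR 4.0.16 (filterByExpr, TMM, quasi-likelihood test, Benjamini-Hochberg adjustment over 15222 genes) without covariates. A prior count of 2 entered log2 CPM. Approximate standard errors were obtained by dividing each fold change by the root of its F statistic. Counting intervals are exact 95% Poisson intervals. Of 15222 genes DESeq2 1.42.0 left 296 without an adjusted p. The code of the fit was tested on simulated counts with known changes and the same dispersion for all genes. That setting does not hold the gap between the controls, so it says nothing of the power in these libraries. Positions and exonic lengths came from GENCODE release 44, in which all 10 genes were found by identifier, and promoter windows from RefSeq on GRCh38.p14. Alternatives included DESeq2's size factors, no filter, at least 10 counts in every library, the edgeR exact test, the DESeq2 Wald test, the replicate number as a block and leaving out each library. The genes named were the 10, USP12, the genes of each fixed list that met the criterion (at most 4 a list), and fixed receptors, SMADs and targets. The 10 genes, the lists and the motifs were chosen with earlier results of these data known. Overlapping genes and SMAD9 were named after their values were seen. So were the cell type markers DCN, COL1A1, CD3E, MS4A1, CD68, LYZ, KRT19, PECAM1 and CDH5 beyond their lists. The result of 1 other gene is not reported here.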

Additional observations from a re-analysis of the deposited data

How the results depend on the processing

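With 2 libraries per group, the calls depended on the estimate of the spread, and the prior degrees of freedom were 4.15 in the fit reported and infinite with no filter, with the replicate block and without either USP12 library. The log2 fold change of USP12 was 6.33 with no filter, 6.31 in the DESeq2 Wald test and 6.32 in the edgeR exact test, in all of which its adjusted p passed 0.05, and ranged from 5.85 to 7.06 without 1 library. Of the 10 genes, 0 had an adjusted p under 0.05 in edgeR's quasi-likelihood fit, and 3, GREM1, BMP2 and TGFB2, had one with no filter, in the DESeq2 Wald test and in the edgeR exact test. Leaving out 1 library gave 1 to 6, with 5 without control replicate 1, 6 without control replicate 2, 2 without USP12 replicate 1 and 1 without USP12 replicate 2, where 10.5%, 32.2%, 0.248% and 0.273% of all genes passed. These fits take the spread from the remaining pair and assume that the lone library varies like it. The count meeting the criterion as higher was 3 in the fit reported and 4 with no filter, against 2.92% and 2.77% of all genes. With at least 10 counts in every library, 5 of the 10 were tested and 1 met it, against 2.44% of all genes. The count meeting it as lower was 0 in the fit reported, with no filter and with at least 10 counts in every library. This does not cover the fits without 1 library, where GDF15 had a log2 fold change of -1.24 without control replicate 2. Genes whose groups did not overlap numbered 6 in the fit reported, against 36.5% of all genes. With at least 10 counts in every library they numbered 2 of the 5 tested, little above the share of all genes under that filter. Under that filter the lack of overlap therefore did not set these genes apart from all genes. Without 1 library they numbered 6 to 9, against 51.6% to 87.8% of all genes, since a lone library overlaps a pair less often. In the other pathway genes 7 met the criterion as higher, 2 to 16 without 1 library, and 1 as lower, 5 with no filter and 0 to 6 without 1 library. Without 1 library the log2 fold change ranged from -0.095 to 2.37 for TGFB1, from -0.46 to 1.23 for LTBP1 and from -0.48 to 1.22 for BMP4. The direction turned for TGFB1 (-0.095), LTBP1 (-0.46) and BMP4 (-0.16) without control replicate 2, and for BMP4 (-0.48) without USP12 replicate 1. The log2 fold change of GREM1 lay between 5.18 and 6.63 and that of BMP2 between 4.15 and 7.39 over 9 alternatives, as neither passed the filter of at least 10 counts in every library, and that of TGFB2 between 1.96 and 2.08 over 10. DESeq2's size factors moved the median of all genes by -0.022 and turned no direction among the 10. Beyond what the construction of each alternative shows, the cause of these shifts was not tested.

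The groups share replicate numbers 1 and 2, but libraries of the same number deviated together only weakly (correlation across genes 0.152) and the labels name no shared culture or day. The date-like prefix in the column headings sets control replicate 1 apart and does not follow the replicate numbers. With the replicate block, USP12 had a log2 fold change of 6.43, 3 of the 10 genes had an adjusted p under 0.05 and 5 met the criterion as higher, against 2.65% and 3.78% of all genes. The replicate block gave log2 fold changes of 5.81 for GREM1, 5.24 for BMP2 and 2.01 for TGFB2.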

Other observations

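Some genes of the pathway followed the replicate number rather than the group. TGFBR1 had 8.47 and 26.7 CPM in control replicates 1 and 2 and 6.41 and 31.8 CPM in USP12 replicates 1 and 2, and SKIL, a SMAD co-repressor that TGF-β induces, had 16.3, 48.8, 12.5 and 41.8 CPM in the same order. Both were low in replicate 1 of each group, while BMP4 was high in replicate 1 of each group. These 3 genes were noticed after their values were seen.

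BMP6, a ligand of the BMP branch, had 4.39 and 15.0 CPM in the control pair and 26.6 and 24.2 CPM in the USP12 pair, with a log2 fold change of 1.39 and an unadjusted p of 0.0775 in edgeR's quasi-likelihood test. NKILA, a long non-coding RNA on the strand opposite PMEPA1 that shares 343 exonic bases with it, had 23 and 6 counts in the control pair and 157 and 139 counts in the USP12 pair. Whether counting was strand-specific is not stated, so its reads cannot be told apart from those of PMEPA1. Both genes were chosen after their values were seen.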
